A study of Mus musculus with 8 samples.

Results

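Genes of the parathyroid hormone-related protein (PTHrP) axis and of lipofibroblasts, 8 in all, were followed in whole lungs of fetal mice: the ligand gene Pthlh, its receptor Pth1r, the transcription factors Pparg and Tcf21, the lipid handling genes Plin2, Lpl and Fabp4, and the leptin receptor Lepr. They were chosen by symbol, and all 8 were found among the 55385 gene IDs of the count tables. The lungs came from C57BL/6 fetuses at E18.5 in 2 groups, control and tracheal occlusion (TO), with 4 libraries each. In the TO group the trachea had been tied off earlier in gestation by a suture passed through the uterine wall, which also took in 1 carotid artery and 1 jugular vein, and the dams received progesterone. No source says whether the control fetuses were operated on or shared a dam with TO fetuses, so p-values measure only the spread between these libraries, and the vessel ligation cannot be told apart from the tracheal one.

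In the fetal lung, PTHrP is made by epithelial cells and is released more when the airway is stretched. It acts on PTH1R, a receptor on neighbouring fibroblasts that raises cyclic AMP, and PPARG then drives those cells toward the lipofibroblast state, in which they store neutral lipid in droplets and pass it to type 2 cells for surfactant. Lipofibroblasts answer with leptin, whose receptor is LEPR, and the comparison asks whether these genes differ in a lung distended by retained fluid.

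PPARG binds DNA with a retinoid X receptor at repeats of the half-site AGGTCA, and its own gene and that of the lipid droplet protein perilipin 2 were the members whose promoters held this half-site. Promoters from RefSeq (GRCm38.p6, 250 bases before to 50 after each start) were on hand for 6 of the 8 genes, 11 in all, and Lpl and Fabp4 had no entry. The half-site, searched on both strands as AGGTCA or TGACCT, was in 3 of these 11 promoters, and in 16.3% of all 32851 promoters of the same length. The full DR1 element, a direct repeat of the half-site with 1 base between the copies, searched on both strands, was in 0 of the 11 and in 0.0396% of all. The 3 promoters are shown with the half-site in capitals, and a match describes letters only. They are Pparg at chr6:115360894-115361193 on the plus strand, Pparg at chr6:115362099-115362398 on the plus strand, and Plin2 at chr4:86670010-86670309 on the minus strand.
Pparg promoter 1: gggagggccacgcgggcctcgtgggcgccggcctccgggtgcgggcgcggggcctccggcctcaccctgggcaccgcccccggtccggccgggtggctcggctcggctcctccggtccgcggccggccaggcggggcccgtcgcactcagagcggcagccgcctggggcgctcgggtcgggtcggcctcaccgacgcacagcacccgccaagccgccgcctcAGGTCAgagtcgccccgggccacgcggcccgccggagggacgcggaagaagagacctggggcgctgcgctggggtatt
Pparg promoter 2: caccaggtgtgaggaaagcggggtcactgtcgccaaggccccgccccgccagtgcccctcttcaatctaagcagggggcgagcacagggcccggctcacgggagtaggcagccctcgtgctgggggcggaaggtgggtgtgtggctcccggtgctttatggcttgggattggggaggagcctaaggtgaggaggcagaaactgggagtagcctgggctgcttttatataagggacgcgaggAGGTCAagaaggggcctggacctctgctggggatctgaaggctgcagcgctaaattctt
Plin2 promoter: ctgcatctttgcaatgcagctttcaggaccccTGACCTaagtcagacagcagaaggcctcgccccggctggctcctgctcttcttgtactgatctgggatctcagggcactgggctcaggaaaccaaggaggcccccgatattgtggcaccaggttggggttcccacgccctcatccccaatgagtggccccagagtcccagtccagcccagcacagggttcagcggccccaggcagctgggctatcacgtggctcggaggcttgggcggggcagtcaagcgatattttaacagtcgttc
In the first Pparg promoter the half-site began 28 bases before the start, in the second 9 bases before it, and in the Plin2 promoter 218 bases before it.

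Read pairs counted on genes numbered 22822261 to 35002061 in 7 libraries and 270078 in TO 1. In TO 1 a single read pair was worth 3.45 CPM (counts scaled to library size), so low genes could not be measured there. Levels are CPM scaled by TMM, a factor that evens out library composition, over all 8 libraries. The tests used the 6 libraries in the study's figure of these data, controls 1, 2 and 4 and TO 2, 3 and 4, and the same test on 7 libraries (without TO 1) and on all 8 is given beside them. The sources used here do not say why that figure lacks control 3 and TO 1. Lipofibroblast markers were present in every one of the 7 deep libraries: Tcf21 at 215 to 340 CPM, Gyg at 305 to 750, Plin2 at 104 to 179, Fgf10 at 54.1 to 85.8, Lpl at 63.8 to 296, Fabp4 at 7.05 to 63.6 and Pparg at 5.78 to 12.7. These are whole lungs, so fewer cells of a type and less RNA per cell cannot be told apart.

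None of the 8 genes passed an adjusted p of 0.1 in the quasi-likelihood test of edgeR on the 6 libraries, where 0 of 21859 genes did (0%). At an unadjusted p under 0.05 there were 3 of the 8, Pth1r lower and Lpl and Fabp4 higher in TO, beside 1123 of all genes (5.14%). DESeq2 on the same libraries called 44 genes (0.201%), Lpl among them, and limma-voom called 0. Groups did not overlap for 2 of the 8, Pth1r and Lpl, against 10.9% of all genes. With control 3 added, 0 of 8 were separate in the 7 libraries (3.97% of all genes) and 0 of 8 in all 8 (2.01%), and in all 8 libraries 0 of 8 had an unadjusted p under 0.05 (2.35% of genes). The edgeR test called 0 genes (0%) in both.

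Pthlh, the ligand, was the least abundant of the genes. It lies on chromosome 6 from 147252101 to 147264183 (GRCm38, minus strand). Its level was 1.62, 0.455, 0.975 and 0.928 CPM in controls 1 to 4, and 0.550, 0.413 and 1.99 CPM in TO 2, 3 and 4. TO 1 held 1 read pair, an exact Poisson 95% interval of 0.0873 to 19.2 CPM that covers counting error only. The groups overlapped, and TO 4 and control 1 were the high libraries, TO 3 and control 2 the low ones. In the 6 libraries the mean was 1.0 ± 0.586 CPM in controls and 0.983 ± 0.872 in TO (SD, n = 3). The log2 fold change of Pthlh was -0.0018 with a standard error of 0.79 (edgeR adjusted p = 1.0), and its 95% interval ran from -1.55 to 1.55. Exact Poisson intervals did not overlap within the controls, being 1.14 to 2.23 CPM in control 1 and 0.249 to 0.763 in control 2. Those intervals take each read pair as a separate count, which was not tested. They therefore do not show how much of the spread lay between lungs.

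The Pthlh values rested on few reads. They were 37, 14, 29 and 23 read pairs in the controls and 19, 10 and 70 in TO 2 to 4. The libraries are not stranded, and over all genes 49.9% to 50.1% of stranded pairs were on the first strand. For Pthlh, TO 2 had 19 pairs on the first strand and 0 on the second, and control 2 had 1 and 13. On the first strand alone the log2 fold change was 0.77, and on the second -0.48. The reads carry no molecular identifiers, and how many separate molecules these pairs came from was not tested.

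Control 1 and TO 4, highest in Pthlh among the deep libraries, were also highest in keratins of stratified epithelium. Krt4, a keratin of such epithelium, was at 149 CPM in control 1 and 133 in TO 4, and at 1.08 to 4.92 in the other 5 deep libraries. Krt13, its usual partner keratin, was at 104 and 106 CPM in those 2 libraries. The summed list of 10 stratified and basal epithelium genes was 113 to 479 CPM in controls and 103 to 483 in TO. Its part in the Pthlh values was not tested.

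Pth1r, the receptor, was lower in TO than in control in the 6 libraries. The gene lies on chromosome 9 from 110722085 to 110747145 on the minus strand. Its level was 63.4, 59.3, 36.3 and 55.2 CPM in controls 1 to 4, and 48.3, 38.1, 30.7 and 55.0 CPM in TO 1 to 4. Without control 3 and TO 1 the groups did not overlap, while control 3 lay among the TO libraries. The exact Poisson 95% intervals of the nearest pair, 52.3 to 58.2 CPM in control 4 and 52.5 to 57.5 in TO 4, overlapped. The means were 59.3 ± 4.12 and 41.2 ± 12.4 CPM (SD, n = 3), a fold of 0.697. The log2 fold change was -0.52 ± 0.20 (standard error) with an unadjusted p of 0.0310 and an edgeR adjusted p of 0.907. In 7 libraries it was -0.38, and in all 8 it was -0.35. Leaving out TO 4, the TO library nearest the controls, gave -0.78 with an edgeR adjusted p of 0.0937, in a fit that called 144 genes (0.692%).

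Pth1r shares 95 exonic bases with Myl3, a cardiac myosin light chain gene on the other strand. Myl3 ran from 2.23 CPM in control 1 to 524 in TO 1, and was 308 CPM in TO 4 and 113 in control 3. Read pairs of an unstranded library that fall on both genes are counted for neither. On each strand alone the Pth1r log2 fold change was -0.52 and -0.54.

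**Figure D1:**
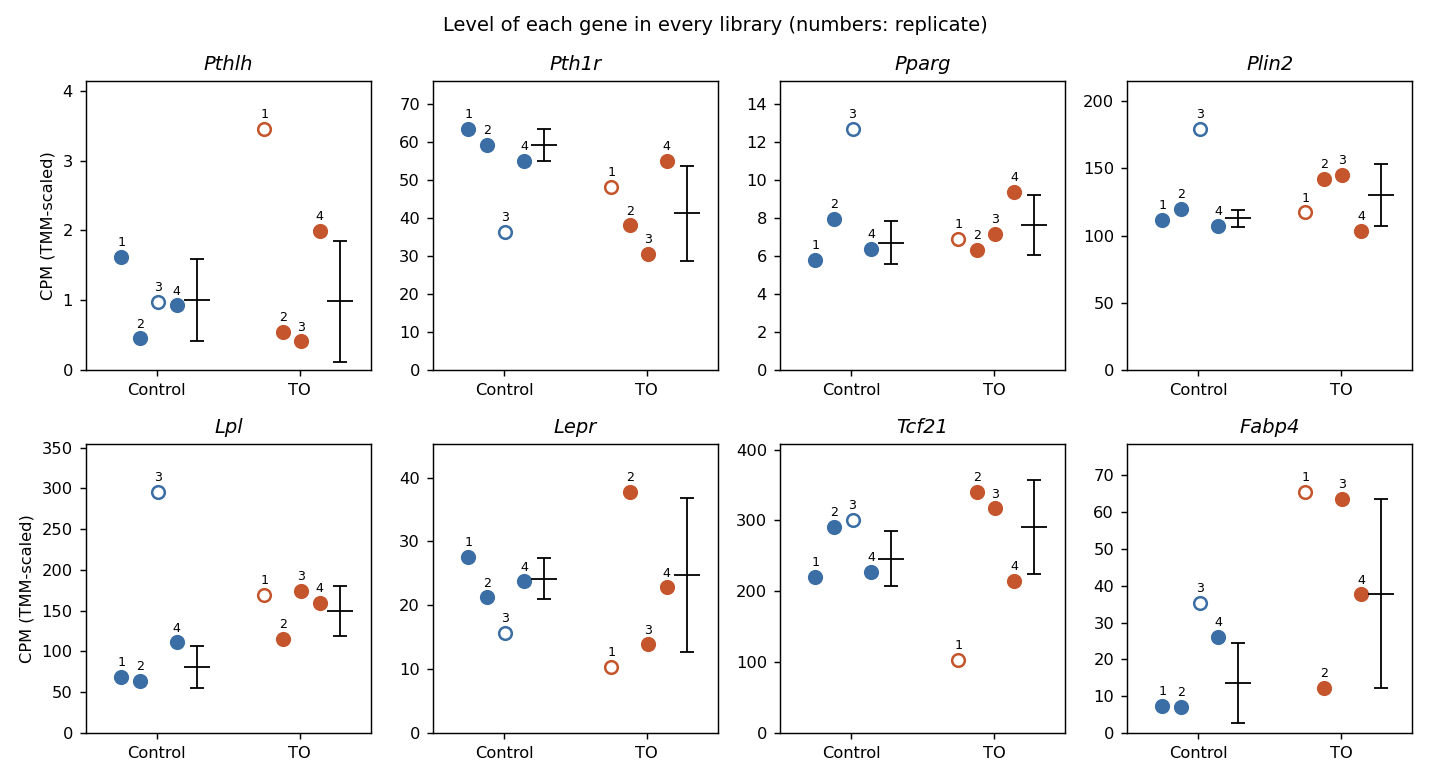
Level of each of the 8 genes in CPM (linear axis from 0) for every control (blue) and TO (red) library, numbered by replicate. Open circles are control 3 and TO 1, and bars are the mean and SD of the other 3 libraries of each group. Control 3 is the highest library for Lpl at 296 CPM and lies among the TO libraries for Pth1r at 36.3.

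Pparg, the lipogenic transcription factor, showed no difference beyond the spread. It lies on chromosome 6 from 115360951 to 115490399 on the plus strand. Its level was 5.78, 7.96, 12.7 and 6.38 CPM in controls 1 to 4, and 6.90, 6.31, 7.18 and 9.37 in TO 1 to 4, where the TO 1 value is 2 read pairs. The groups overlapped in full, and control 3 was the highest library of all. The log2 fold change was 0.18 ± 0.25 (95% interval -0.31 to 0.68, edgeR adjusted p = 0.960). With control 3 the sign turned, to -0.11 in 7 libraries and -0.12 in all 8.

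Tcf21, a transcription factor of lung mesenchyme and of early lipofibroblasts, was the most abundant of the 8. It lies on chromosome 10 from 22817281 to 22820174 on the minus strand. Its level was 220, 291, 301 and 228 CPM in controls 1 to 4, and 103, 340, 317 and 215 in TO 1 to 4. TO 2 and TO 3 were above every control and TO 4 below every control. On the log2 scale TO differed from control by 0.24 ± 0.18 (edgeR adjusted p = 0.910), 0.16 in 7 libraries and -0.04 in all 8, where TO 1 entered with 30 read pairs.

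Plin2 encodes the coat protein of the lipid droplet and lies on chromosome 4 from 86648386 to 86670060 on the minus strand. Its level was 112, 120, 179 and 107 CPM in controls 1 to 4, and 117, 142, 145 and 104 in TO 1 to 4. TO 2 and TO 3 were above controls 1, 2 and 4, and TO 4 was the lowest library. Its log2 fold change was 0.20 ± 0.14 (edgeR adjusted p = 0.909), 0.01 in 7 libraries and -0.02 in all 8.

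Lpl, the lipase that frees fatty acids from circulating lipoproteins, had the lowest unadjusted p of the 8. It lies on chromosome 8 from 68880491 to 68907448 on the plus strand. Its level was 68.3, 63.8, 296 and 111 CPM in controls 1 to 4, and 169, 116, 174 and 160 in TO 1 to 4. The 3 TO libraries were above controls 1, 2 and 4, and control 3 was above all TO libraries. The means of the 6 libraries were 81.0 ± 26.0 and 150 ± 30.5 CPM (SD, n = 3), 1.85-fold higher in TO. The log2 fold change of Lpl was 0.88 ± 0.23 with an unadjusted p of 0.0041, an edgeR adjusted p of 0.907 and a DESeq2 adjusted p of 0.0454.

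The Lpl result turned on the choice of libraries and of filter. In 7 libraries the log2 fold change was 0.15 (95% interval -0.78 to 1.09) and in all 8 it was 0.19, both with an edgeR adjusted p of 1.0. Without control 4 it was 1.18, with an edgeR adjusted p of 0.0969 and 52 genes called (0.247%). With no filter on low counts it was 0.89, with an edgeR adjusted p of 0.0566 and 40 genes called (0.127%).

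Fabp4, a carrier of fatty acids found in adipocytes, capillaries and macrophages as well as lipid-laden fibroblasts, varied most between the 7 deep libraries, with a coefficient of variation of 76.0%. It lies on chromosome 3 from 10204088 to 10208576 on the minus strand. Its level was 7.36, 7.05, 35.3 and 26.0 CPM in controls 1 to 4, and 65.5, 12.2, 63.6 and 37.7 in TO 1 to 4, 19 read pairs in TO 1. Controls 1 and 2 were the low libraries, and TO 2 lay below controls 3 and 4, so the groups overlapped. The log2 fold change was 1.48 ± 0.64, 2.79-fold higher in TO, with an unadjusted p of 0.0446 and an edgeR adjusted p of 0.907. It was 1.0 in 7 libraries and 1.13 in all 8. Leaving out 1 of the 6 libraries moved it from 0.90 without TO 3 to 2.39 without control 4.

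Controls 1 and 2 were also the low libraries in heart muscle genes. The sum of 10 cardiomyocyte genes was 824, 579, 5759 and 4527 CPM in controls 1 to 4, and 8353, 2589, 3877 and 6713 in TO 1 to 4. In the 6 libraries 10 of these 10 genes were higher in TO and 0 were called, the median being 1.16 on the log2 scale, with Myh6 at 1.08, Actc1 at 1.17 and Tnnt2 at 1.27. It was 0.65 in 7 libraries and 0.89 in all 8. Without control 4 it was 2.59 with 6 of the 10 called by edgeR, beside 0.247% of all genes. Without TO 4 it was 0.69 with 8 of 10 higher. The sum of 10 macrophage genes was 227 to 333 CPM in controls and 269 to 460 in TO, with 10 of 10 higher, 6 of them at an unadjusted p under 0.05, and their median was 0.83. Among them Lyz2 was at 0.73, Csf1r at 0.44, Mrc1 at 0.27, Adgre1 at 0.82, Cd163 at 0.96 and the complement genes C1qa and C1qb at 0.85 each. In 7 libraries and in all 8, 10 of 10 were higher, with medians of 0.73 and 0.71. Without TO 4 edgeR called 1 of 9 macrophage genes, beside 0.692% of all genes. Of the capillary genes, 6 of 10 were higher, with a median of 0.01, and Cdh5 was at -0.14, Pecam1 at -0.03, Kdr at 0.01 and Plvap at -0.35. In 7 libraries 2 of the 10 were higher and in all 8 libraries 1, with medians of -0.12 and -0.19. The adipocyte list summed to 1.05 to 2.69 CPM in controls and 1.45 to 7.44 in TO, highest in TO 4. Its most abundant genes were Cidea, with reads in all 8 libraries and 82 pairs in TO 4, Elovl3, with 107 pairs in TO 4 and 8 in TO 2, and Pck1, with 59 pairs in TO 4 and 0 to 5 elsewhere. Only Cidea could be tested, at 1.39. The other genes of the adipocyte list are named after their values were seen. Ucp1 was at 0 in all 8 libraries and Lep at 0 in 7. Adipoq was at 0 in 6, with 10 pairs in control 2 and 12 in TO 4. Cfd was also at 0 in 6, with 25 pairs in control 2 and 10 in TO 3. Plin1 was at 0 in 5 libraries, Retn in 4 and Cidec in 3. The part of heart, macrophage, capillary or fat cell RNA in the Fabp4 and Lpl values was not tested.

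Lepr, the leptin receptor, lies on chromosome 4 from 101717404 to 101815352 on the plus strand. Its level was 27.6, 21.2, 15.7 and 23.7 CPM in controls 1 to 4, and 10.3, 37.8, 13.9 and 22.8 in TO 1 to 4, 3 read pairs in TO 1. TO 2 was the highest of all libraries and TO 3 the lowest of the deep ones, so TO libraries lay on both sides of the controls. For Lepr the log2 fold change was 0.04 ± 0.31 (95% interval -0.57 to 0.65, edgeR adjusted p = 0.993), 0.17 in 7 libraries and 0.08 in all 8. It was -0.39 without TO 2.

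**Figure D2:**
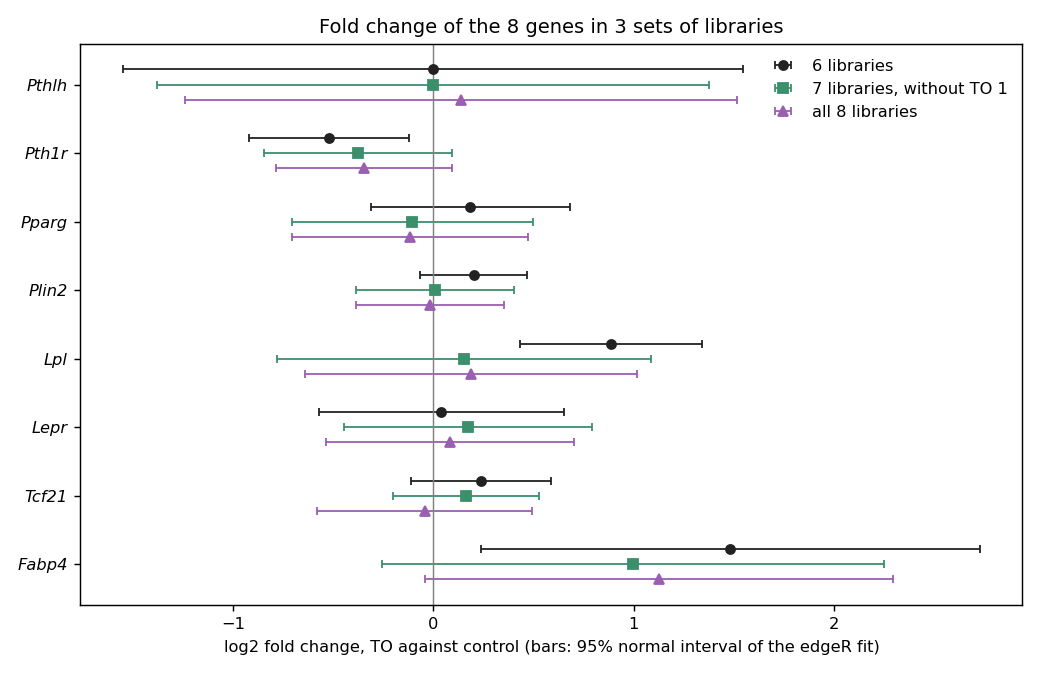
Log2 fold change of TO against control (x axis) for the 8 genes, from edgeR fits of 6 libraries (black circles), 7 libraries without TO 1 (green squares) and all 8 (purple triangles), with 95% intervals. Lpl goes from 0.88 in 6 libraries to 0.15 in 7 and 0.19 in 8, and Pparg changes sign.

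Per length of the main transcript, the order of levels in controls was Tcf21 at 205 ± 33.1 CPM per kilobase, Plin2 at 68.6 ± 17.7, Lpl at 32.7 ± 26.6, Pth1r at 23.2 ± 5.19, Fabp4 at 21.1 ± 15.7, Lepr at 6.47 ± 1.47, Pparg at 4.64 ± 1.77 and Pthlh at 0.620 ± 0.299 (SD, n = 4). Neighbours in this order overlapped between libraries except Tcf21 with Plin2 and Pparg with Pthlh. The receptor was far above its ligand per length in the control means, and whole lungs do not show which cells held either.

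Control 3 and TO 3 resembled each other across several of the genes. Among the deep libraries of its group, each was highest in Lpl, Plin2 and Fabp4 and lowest in Pth1r and Lepr. Both were also highest of their group in elastin, Eln, at 10255 CPM in control 3 and 9189 in TO 3, against 3664 to 4467 in the other controls and 2217 to 5776 in the other TO libraries. Lox, which crosslinks elastin, was likewise highest of its group in both. Smooth muscle actin differed, and Acta2 was at 570 CPM in control 3, the highest control, and at 212 in TO 3, the lowest TO library. Over 16913 genes, deviations of control 3 and TO 3 from their group means correlated at 0.241, the highest of any control with any TO library. The fit of 6 libraries kept TO 3 and left out control 3, so the groups were not balanced in this trait. Its part in the fold changes of Lpl, Pth1r and Fabp4 was not tested.

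**Figure D3:**
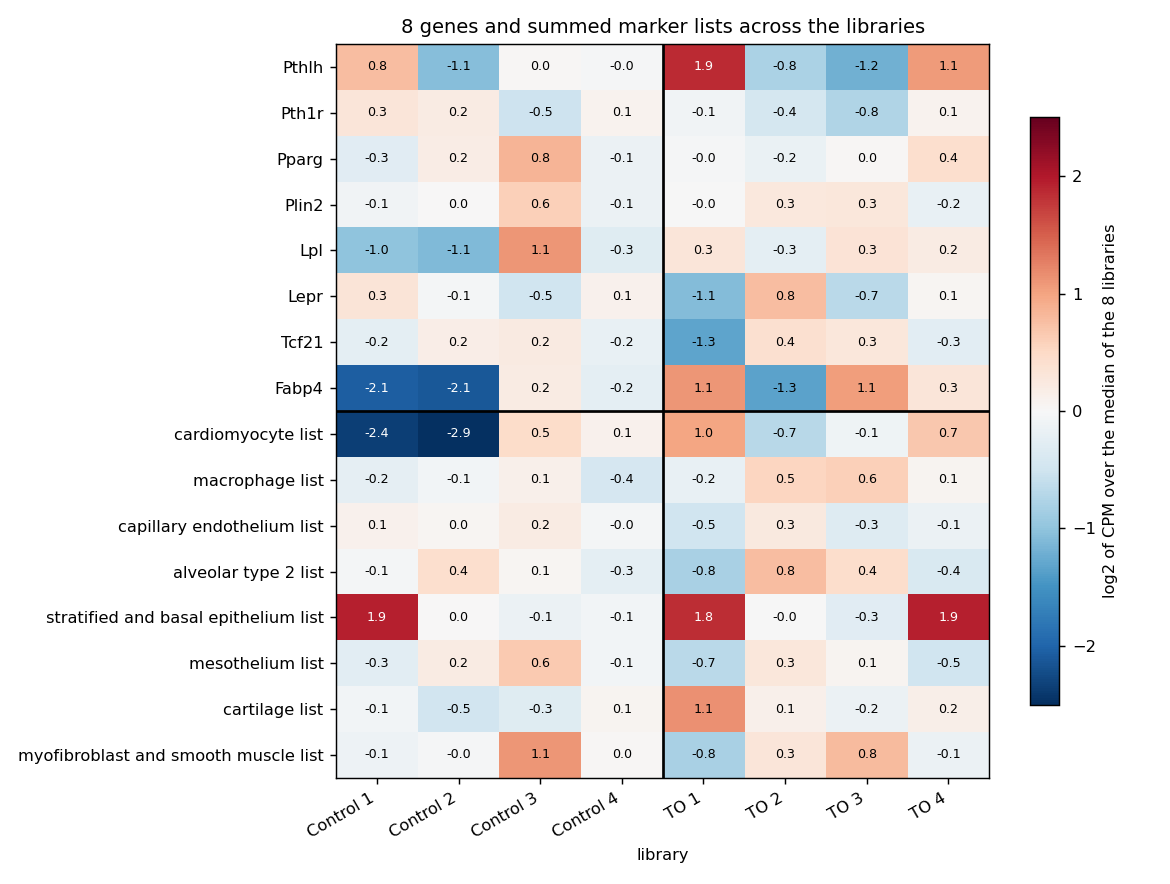
Log2 of CPM over the median of the 8 libraries, for the 8 genes (upper rows) and for summed marker lists (lower rows), controls left and TO right. The cardiomyocyte list is low in controls 1 and 2, as Fabp4 is, and the stratified epithelium list is high in control 1, TO 1 and TO 4.

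The listed genes of PTH1R signalling were split in direction. Of 18 PTH1R signalling genes 15 were tested, 8 higher and 7 lower, and their log2 fold changes had a median of 0.02, with 0 called and 0 at an unadjusted p under 0.05. The median over all 21859 genes was -0.0045, with 10777 higher. Prkar1a, a regulatory subunit of protein kinase A, was at 0.07, the adenylyl cyclase Adcy6 at 0.13, and Arrb1, an arrestin that quiets such receptors, at -0.25. Pth, Pth2 and Pth2r were too low to test.

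Of 30 genes that partner PPARG or handle neutral lipid 28 were tested, 20 higher and 8 lower, their median being 0.33, and 9 higher and 0 lower at an unadjusted p under 0.05, beside 671 higher and 452 lower of all 21859 genes (5.14%). The edgeR test called 0 of them. DESeq2 called Cebpd, a transcription factor of early fat cell differentiation (DESeq2 adjusted p = 0.0688), beside 44 of all 21859 genes (0.201%). Cebpd was at 54.5, 62.7, 158 and 63.3 CPM in controls 1 to 4 and 111, 149 and 70.0 in TO 2 to 4, so control 3 was again the highest library. Its edgeR log2 fold change was 0.86 in 6 libraries, 0.37 in 7 and 0.24 in all 8. The fatty acid transporter Cd36 had a log2 fold change of 0.59, the lipoprotein receptor Vldlr 0.38, the fatty acid carrier Fabp5 0.41, the lipase Pnpla2 0.37, its activator Abhd5 0.48, the nuclear receptor Ppara 0.52 and the droplet protein Plin5 1.10. In 7 libraries Vldlr fell to 0.046 and Pnpla2 to -0.0045, and control 3 was the highest library for both, at 416 and 85.8 CPM. Cd36 was at 0.38, Fabp5 at 0.34 and Abhd5 at 0.40 in the 7 libraries. Scd1, a fatty acid desaturase, was at 1.63, with 720 CPM in TO 2 and 89.9 to 145 in every other library. The abundant desaturase Scd2 and the synthase Fasn were at 0.07 and 0.30. In 7 libraries 16 of 29 of these genes were higher, with a median of 0.07 and 1 at an unadjusted p under 0.05. In all 8 libraries 16 of 29 were higher, with a median of 0.05 and 2 at that p. The 6 libraries without TO 4 had 2 of 28 called by edgeR, beside 0.692% of all genes.

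Of 6 leptin signalling genes 5 were tested, 3 higher, with a median of 0.19, which was 0.05 in 7 libraries and 0.0052 in all 8. Stat3, the transcription factor that LEPR activates, was at 0.45 with an unadjusted p of 0.0118 in 6 libraries and at 0.14 in all 8. Sh2b1 and the phosphatase Ptpn1 were at -0.06 and -0.02.

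Markers of alveolar fibroblasts were 9 higher and 9 lower of 18, with a median of -0.0044. In 7 libraries 6 were higher and 12 lower (median -0.06), and in all 8 libraries 2 were higher and 16 lower (median -0.14). The abundant ones, Mfap4, Macf1 and Npnt, were at -0.09, 0.02 and -0.03. Inmt, a methyltransferase, was at 2.80, with 1.31, 3.90, 78.8 and 5.29 CPM in controls 1 to 4 and 11.9, 57.0 and 5.48 in TO 2 to 4, and at -0.01 in all 8 libraries. The lipofibroblast list of the study was 8 higher and 7 lower of the 15 genes that could be read, with a median of 0.0015, and its abundant genes Fhl1, Adh1 and Enpep were at -0.02, -0.33 and 0.00. Myofibroblast and smooth muscle genes were 7 higher and 3 lower of 10, with a median of 0.17. They were 6 higher and 4 lower in 7 libraries (median 0.09) and 3 higher and 7 lower in all 8 (median -0.11). Among them Eln was at 0.58, Lox at 0.16 and Tgfbi at -0.42.

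**Figure D4:**
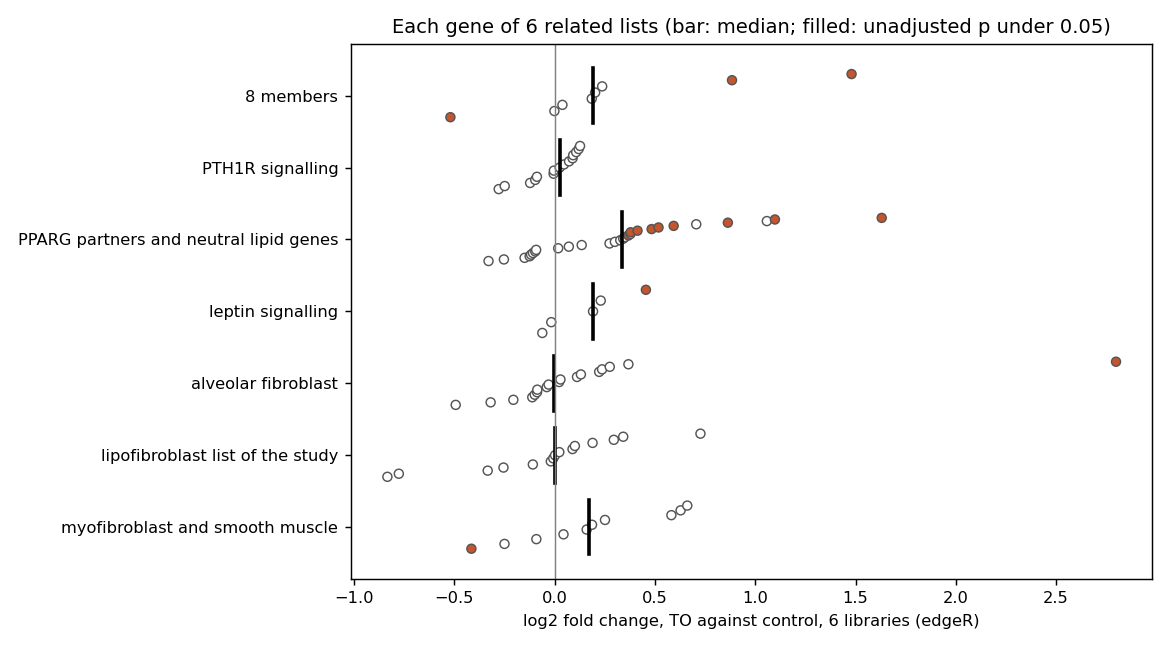
Log2 fold change of TO against control in 6 libraries (x axis) for each tested gene of the 8 members and of 6 related lists. Each circle is a gene, filled where its unadjusted p was under 0.05, and each bar is a list's median, 0.33 for PPARG partners and neutral lipid genes and 0.02 for PTH1R signalling.

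Of the other marker lists in the 6 libraries, alveolar type 2 genes were 9 higher of 10, with a median of 0.34, among them the surfactant proteins Sftpc at 0.18, Sftpb at 0.38 and Sftpd at 1.49 and the phosphate carrier Slc34a2 at 0.68. Their median was 0.34 in 7 libraries and 0.13 in all 8. Sftpd was at 44.9, 78.1, 286 and 64.2 CPM in controls 1 to 4 and 172, 322 and 35.5 in TO 2 to 4. Its log2 fold change was 0.58 in 7 libraries and 0.35 in all 8. In 7 libraries Sftpc was at 0.22, Sftpb at 0.42 and Slc34a2 at 0.51. Cartilage genes were 6 higher of 9, with a median of 0.57. The abundant cartilage genes were Sox9 at -0.28, Col11a1 at 0.25 and Col2a1 at 0.61, while Chad was at 0.95. Ihh was at 2.96, but on 0.131, 0.0649, 0.605 and 0 CPM in controls 1 to 4 and 0.926, 0.413 and 0.255 in TO 2 to 4. The cartilage median was 0.44 in 7 libraries and 0.67 in all 8. Genes of stratified and basal epithelium were 5 higher of 8, with a median of 0.13 and with Krt15 at -0.05, Krt4 at -0.16 and Krt13 at 0.05. They were 7 higher of 8 in both larger sets, with medians of 0.42 and 0.60, and 2 higher of 8 without TO 4, with a median of -1.07. Mesothelial genes were 7 higher of 8, with a median of 0.20, Krt19 at -0.27, Msln at 0.19, Upk3b at 0.10 and Muc16 at 0.89. In both larger sets they were 3 higher and 5 lower, with medians of -0.04 and -0.09. In the 6 libraries neither edgeR nor DESeq2 called a gene of these 4 lists. Without TO 4 edgeR called 3 of 10 alveolar type 2 genes and 1 of 8 cartilage genes, beside 144 of all 20801 genes (0.692%).

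The genes whose log2 CPM ran most like that of 3 members over the 7 deep libraries were listed as a description, among 16912 genes. For Pthlh they were Actg2 (Pearson r = 0.975), Ccdc14 (0.969) and Acsf2 (0.962). For Pparg they were Ndufa6 (0.979), AC132251.1 (0.973) and Gm42725 (0.967), and for Tcf21 they were Ldlrad1 (0.989), Zdhhc3 (0.988) and Adrb3 (0.984). The points are only 7 whole lungs, and no p is given. No source says whether they shared a batch of preparation or sequencing.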

How the data were processed

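The authors prepared NexteraXT libraries, which keep no strand, from RNA of 4 control and 4 TO lungs, sequenced them as paired reads and aligned them to GRCm38 with STAR. The version and annotation are not given in the sources used here. What the authors deposited is a table of STAR gene counts for each library, neither scaled nor filtered, in an unstranded column, used here, and 2 stranded ones. Summary lines for unmapped, multimapping, unassigned and ambiguous pairs, 23.1% to 27.1% of each library, were left out. Of 55385 gene IDs, 55144 matched GENCODE M21 without the version, which gave symbols, positions and transcript lengths, and promoters came from RefSeq.

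Calculations used R 4.3.3, edgeR 4.0.16, DESeq2 1.42.0 and limma 3.58.1, with figures in Python 3.11.15. A gene entered a fit if 3 or more of its libraries held at least 5 reads, and was tested with the edgeR quasi-likelihood test after TMM scaling, adjusted over all genes by Benjamini-Hochberg, at a threshold of 0.1. CPM per library used TMM factors of all 8 libraries. In simulated counts for the 6 libraries, 182 of 200 genes changed by 2 on the log2 scale were recovered by edgeR, and 37 unchanged genes were called. The changed genes were drawn only from genes with a higher mean count than Pthlh. That change was also larger than the one of any of the 8 genes in the 6 libraries. Recovery of smaller changes or at lower counts was not tested. Intervals of single libraries cover counting error only, and 95% intervals of fold changes are normal intervals of the fit. Standard errors of edgeR fits were worked back from the fold change and the test statistic. With so few libraries the normal intervals are narrower than the test implies. For Pth1r without control 1 the interval was -0.93 to -0.0062, while the edgeR unadjusted p was 0.0833.

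The 8 genes and the 14 gene lists were chosen with earlier results of these data known. From each list the text names its 3 most abundant genes, those called by edgeR or DESeq2 and those with an unadjusted p under 0.05, and for Pthlh, Pparg and Tcf21 the 3 genes of highest correlation. Members of the list of the study were taken from its supplement, where 1 name could not be read. Alternatives were the scaling, the filter, the test, the strand, the libraries fitted and a replicate block.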

Additional observations from a re-analysis of the deposited data

Results flagged for a closer look

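Of 44 groups of 4 libraries examined, 4 held a library whose gap to the others was large for the range of the group, and chance alone would give about 1 in 20. None of them was a level of the 8 genes. The summed leptin signalling list was 525 CPM in control 3 and 383 to 398 in the other controls. The summed myofibroblast and smooth muscle list was 14152 CPM in control 3 and 6021 to 6680 in the other controls. The summed cartilage list was 221 CPM in TO 1, the shallow library, and 89.4 to 111 in the other TO libraries. The summed stratified and basal epithelium list was 479 CPM in control 1 and 113 to 126 in the other controls.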

How the results depend on the processing

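Of 168 recomputed values of the 8 genes, 133 kept their direction and side of the threshold, 30 reversed and 5 passed the threshold. Pthlh, at -0.0018, turned to 0.0014 with DESeq2 size factors, 0.00054 with no filter, 0.020 with 5 reads in every library, 0.0030 with filterByExpr, 0.77 on the first strand and 0.14 in all 8 libraries. Pparg turned to -0.12 in all 8 libraries and -0.11 in 7, Plin2 to -0.018 and Tcf21 to -0.045 in all 8, and Lepr to -0.0061 with limma-voom and -0.080 on the second strand. Lpl passed the threshold at 0.89 with no filter and 0.90 with DESeq2. Leaving out 1 library gave -1.03 to 0.52 for Pthlh, -0.39 to 0.33 for Lepr, -0.78 to -0.33 for Pth1r, 0.74 to 1.18 for Lpl and 0 to 144 genes called, the highest without TO 4 and 52 without control 4. No filter called 40 genes and DESeq2 44. DESeq2 on all 8 and on 7 libraries, chosen after seeing the data, called 7 genes each and gave 0.19 for Pthlh, -0.11 and -0.11 for Pparg, -0.0052 for Plin2 and -0.041 for Tcf21. The causes were not tested.

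Replicate numbers are shared between groups, but no source says that they mark a pair. Deviations of same-numbered libraries over 16913 genes correlated at 0.0826, 0.18, 0.241 and 0.107 for numbers 1 to 4, and 7 of the 8 libraries correlated best with their own number, control 1 being the exception with TO 4 (0.0868). This is a hint from the data that the numbers may pair libraries. Number 1 fell below the 0.1 asked of every pair, so the fits without the block were given first. That number includes TO 1, the shallow library with 270078 read pairs on genes. How far its depth lowered the correlation was not tested, so the value for number 1 does not show that the libraries are unpaired. With a replicate block, 219 genes were called in 6 libraries, 3 in all 8 and 5 in 7, the last added after seeing the data. In the 6 libraries only numbers 2 and 4 occur in both groups, so there the block fit compared the groups within those numbers alone. Under the replicate block Lpl was 0.69 (edgeR adjusted p = 0.0114) in 6 libraries, 0.43 in all 8 and 0.21 in 7. Pthlh was 0.71 in 6, 0.22 in 8 and 0.083 in 7, and the block changed no other call of the 8 genes. Fabp4 was 0.66 in 6 libraries (unadjusted p = 0.0030, edgeR adjusted p = 0.208) and 1.07 in all 8 (0.0029 and 0.781). In 6 libraries the block called 7 of 10 cardiomyocyte, 3 of 8 stratified epithelium and 3 of 10 myofibroblast and smooth muscle genes. It also called 2 of 28 PPARG partner and neutral lipid genes and 1 of 10 macrophage genes, beside 219 of all 21859 genes. Pparg was -0.17 in 8 and -0.20 in 7, Plin2 -0.018 and -0.037, and Tcf21 -0.14 in 8. Depth limits Pthlh in every library, and Pthlh, Pparg and Lepr in TO 1 in particular, which held 1 to 3 read pairs of each.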
